A study of Mus musculus with 54 samples.

Results

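Ribosome biogenesis genes encode the machinery that makes ribosomes and not the proteins of the finished ribosome. A list of 38 such genes was followed across arrays of Ba/F3-gp130 cells, chosen by function, with earlier results of these arrays known. Of these, 37 had an array feature (a probe set) annotated with only that gene, and they are described here among 19920 measured genes. The remaining gene, Noc2l, was not analysed here. For a gene with several probe sets, the brightest on average was taken.

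Ba/F3 cells come from a mouse pro-B line. The Ba/F3-gp130 form needs Hyper-IL-6, in which interleukin-6 is joined to its soluble receptor, to grow. The series set the untransfected (parental) line beside lines carrying the constructs CIR-1, CIR-2 or CIR-3 of a Cargo Internalization Receptor, to see how far the constructs themselves affect the cells. All lines were grown with Hyper-IL-6, washed, and kept without serum for 3 h. Arrays were run for each line without stimulation and after a 1 h exposure to GFP-PFC, an emulsion given at 50 µl per ml. Parental cells alone also received Hyper-IL-6 at 100 ng/ml for 1 h, the positive control. This gave 9 groups of 3 arrays, 27 arrays in all. Separate cultures for the arrays within a group are not stated in the labels, nor whether a CIR line is a single clone or which promoter drives the construct, so the p-values below measure only the spread between these arrays. No group with an emulsion lacking GFP is named.

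Ribosomes are assembled in the nucleolus. RNA polymerase I (Pol I) transcribes the ribosomal DNA into a long precursor, which small nucleolar ribonucleoproteins (snoRNPs) modify at many bases, those of the box C/D class by methylation and those of the box H/ACA class by pseudouridylation. The small subunit processome then folds and cuts the part that becomes the 40S subunit, and a separate series of particles matures the 60S subunit. The work is costly for a cell, and in growing blood cells it follows growth signals, in large part through the transcription factor MYC, which activates many of these genes.

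The values are log2 signals per probe set, so a difference of 1 is a doubling of signal. A gene passed the test where limma's moderated test, which borrows information on spread across genes, gave a p-value under 0.05 after Benjamini-Hochberg adjustment over all 19920 genes. Array medians over all probe sets lay between 7.52 and 7.65. A gene is called dim here where its mean over the 27 arrays lay below 6.73, the highest lower quartile of any array over the genes tested. Of 13 measured pro-B cell markers, 6 (Cd79a, Cd79b, Pax5, Vpreb1, Igll1 and Ptprc) lay above that level, while 7, among them Ebf1, Rag1, Rag2 and Il7r, were dim, so several defining genes of the labelled cell type were dim in these cells. Lying above that level does not show expression, since 4 of 6 T cell markers did so too. Pax5 (7.24), Vpreb1 (7.10) and Igll1 (7.49) lay below every array median. Within each group of unstimulated or GFP-PFC cells, the array numbered 1 or 2 differed from the rest in many genes, as described for the members further on.

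The 37 members were bright, with means over the 27 arrays from 10.23 (Rrp9) to 13.52 (Ncl), and none was dim. The 9 group means of a member differed by little. The range of group means ran from 0.079 for Gar1, a small core protein of box H/ACA snoRNPs, to 0.40 for Nop2, an rRNA cytosine methyltransferase of the large subunit pathway. Its median over the members was 0.15, beside 0.20 over all genes and 0.17 over the 5149 genes at or above the level of the dimmest member. The pooled SD within groups had a median of 0.085 over the members and was widest for Nop2 (0.36) and narrowest for Ddx18 (0.033). The range of group means exceeded the pooled SD for 35 of 37 members. Over all genes the median range, 0.20, likewise exceeded the median pooled SD, 0.12. A range over 9 means tends to exceed the SD within groups, so this count does not show that the groups differ.

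The lowest group mean belonged to unstimulated CIR-1 cells for 22 members and to GFP-PFC-treated CIR-1 cells for 4 more. The highest belonged to GFP-PFC-treated parental cells for 21 members and to Hyper-IL-6-treated parental cells for 7. These counts are a description, since neighbouring groups in most of these orders differed by less than their spread.

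**Figure D1:**
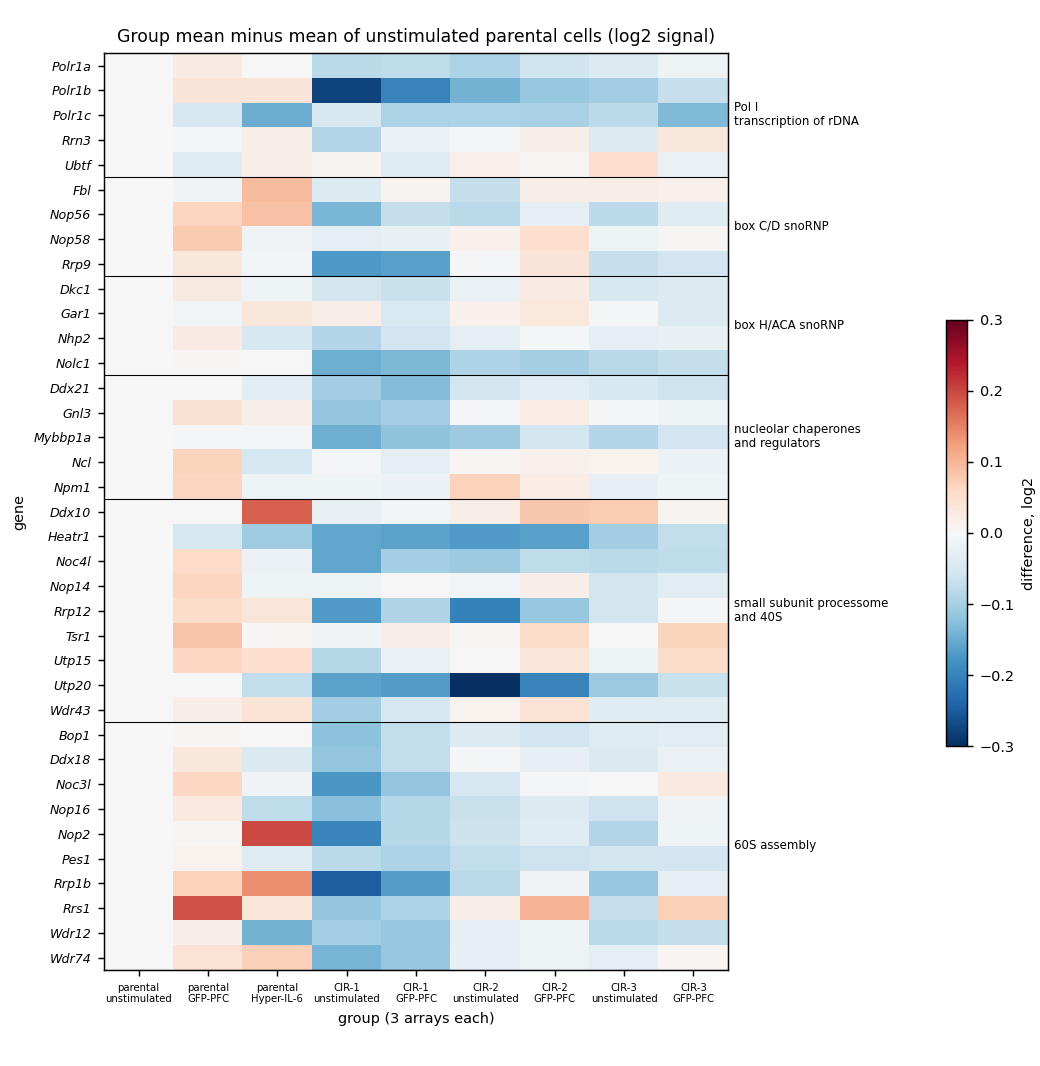
Each cell of the map is the mean of 3 arrays of a group minus the mean of unstimulated parental cells, in log2 signal (blue lower, red higher), for the 37 members ordered by role. The CIR-1 columns are mostly blue, and Ddx10, Nop2 and Rrp1b are red in the Hyper-IL-6 column, where no member passed the test.

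CIR-1 cells had less signal than parental cells for nearly all members, by a small margin. Averaged over unstimulated and GFP-PFC-treated cells (6 arrays against 6), 36 of 37 members lay below the parental mean, beside 49.6% of all genes. The median difference of the members was −0.11, beside 0.0007 over all genes and −0.00023 over the 5149 genes at or above the level of the dimmest member. The test was passed by 3 members, all lower in CIR-1: Noc3l, Nolc1 and Ddx18 (3 of 37, where 1.96% of all genes were lower in CIR-1). That members of a ribosome list lay lower in CIR-1 was known from earlier work on these arrays when the list was drawn up, so their shared direction is no independent evidence of it. In bulk RNA, fewer cells of a kind and less RNA per cell cannot be told apart.

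The DNA just before the start sites of these 3 genes is shown here because they are the members that passed the test. Each is the 250 bases before the annotated start, 5′ to 3′ on the gene's strand, from RefSeq on GRCm38.p6 (the arrays' files name no build). Capitals mark matches on either strand to CACGTG (the E-box bound by MYC), CCGGAAG (an ETS factor site), CCAAT or TATAAA. Noc3l (chr19:38819238-38819487, minus strand) has none of these letters in the window. Nolc1 (chr19:46075597-46075846, plus strand) has CCGGAAG with its first base 14 bases before the start, and Ddx18 (chr1:121567981-121568230, minus strand) has CCAAT 160 bases before the start.
Noc3l: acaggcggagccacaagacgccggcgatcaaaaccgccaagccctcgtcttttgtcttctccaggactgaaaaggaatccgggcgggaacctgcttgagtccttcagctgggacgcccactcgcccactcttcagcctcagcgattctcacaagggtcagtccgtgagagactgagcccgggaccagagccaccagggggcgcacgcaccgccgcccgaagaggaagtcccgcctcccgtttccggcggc
Nolc1: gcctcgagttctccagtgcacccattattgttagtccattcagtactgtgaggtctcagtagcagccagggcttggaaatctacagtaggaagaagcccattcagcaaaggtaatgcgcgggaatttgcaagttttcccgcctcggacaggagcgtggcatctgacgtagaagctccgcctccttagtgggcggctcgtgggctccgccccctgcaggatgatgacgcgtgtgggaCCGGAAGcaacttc
Ddx18: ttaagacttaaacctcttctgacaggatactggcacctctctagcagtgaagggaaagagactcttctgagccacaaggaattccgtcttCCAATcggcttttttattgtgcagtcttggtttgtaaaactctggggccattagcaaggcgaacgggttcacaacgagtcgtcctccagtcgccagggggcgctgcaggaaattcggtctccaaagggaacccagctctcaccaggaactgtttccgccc

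Noc3l encodes a nucleolar protein of early 60S precursors. Its log2 signal was 11.41, 11.24 and 11.26 in unstimulated parental cells and 11.43, 11.40 and 11.27 in parental cells with GFP-PFC. It was 11.26, 10.98 and 11.14 in unstimulated CIR-1 cells and 11.20, 11.15 and 11.21 in CIR-1 cells with GFP-PFC. In CIR-1, 5 of 6 arrays lay below every parental array, and the highest CIR-1 array overlapped the lowest parental ones. The difference was −0.18 (SE 0.046, 95% interval −0.27 to −0.082), that is, the signal fell by 11.6%, with an adjusted p of 0.0210 in limma. The arrays of CIR-2 (11.21 to 11.36) and CIR-3 (11.25 to 11.35) lay within the parental range or just below it.

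Nolc1 encodes a phosphoprotein of nucleoli and Cajal bodies that binds snoRNPs and Pol I. Parental cells gave 12.68, 12.66 and 12.69 unstimulated and 12.70, 12.67 and 12.67 with GFP-PFC. CIR-1 cells gave 12.43, 12.57 and 12.60 unstimulated and 12.47, 12.57 and 12.58 with GFP-PFC. All CIR-1 arrays lay below all parental arrays, and the arrays numbered 1 and 2 were the lowest of the CIR-1 arrays. The difference was −0.14 (SE 0.040, 95% interval −0.22 to −0.059), so the signal fell by 9.33%, with an adjusted p of 0.0380 in limma.

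Ddx18 encodes a DEAD-box RNA helicase of nucleolar pre-ribosomes. Its signal was 12.26, 12.22 and 12.25 in unstimulated and 12.24, 12.32 and 12.28 in GFP-PFC-treated parental cells. It was 12.12, 12.09 and 12.17 in unstimulated and 12.11, 12.20 and 12.20 in GFP-PFC-treated CIR-1 cells, again without overlap with the parental arrays. The difference was −0.11 (SE 0.033, 95% interval −0.18 to −0.045), a signal that fell by 7.58%, with an adjusted p of 0.0477 in limma. A further probe set of Ddx18 gave −0.18 (adjusted p 0.0223 in limma with every probe set tested on its own).

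**Figure D2:**
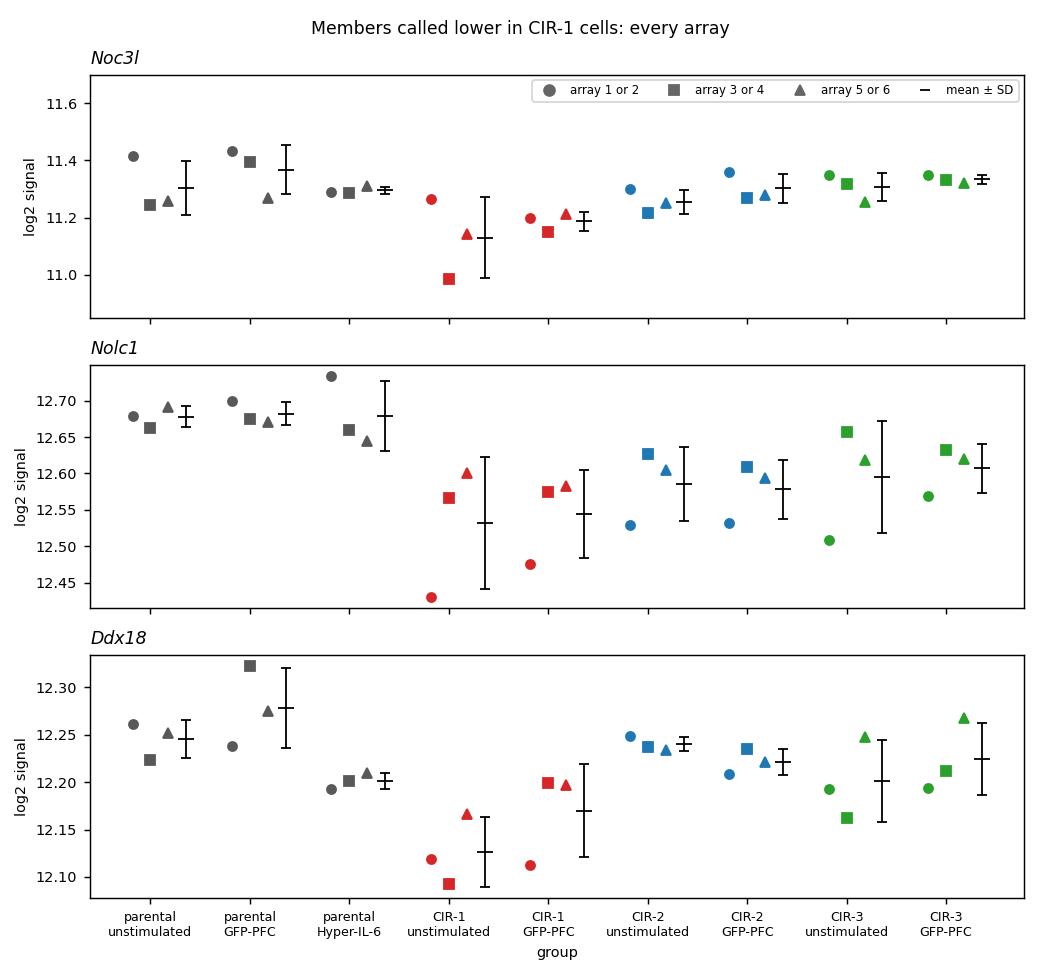
The log2 signal of Noc3l, Nolc1 and Ddx18 is plotted for every array of the 9 groups, with marker shapes for the array numbers and bars for the mean ± SD of 3 arrays. For Nolc1 and Ddx18 the 6 CIR-1 arrays lie below the 6 parental arrays without stimulation or with GFP-PFC, while for Noc3l the highest CIR-1 array overlaps them.

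The same direction ran through all roles in CIR-1. Of the 60S assembly members, 10 of 10 lay below 0 (median −0.13), and 2 passed the test. The snoRNP members were below 0 in 4 of 4 cases for box C/D (median −0.099) and in 4 of 4 for box H/ACA (median −0.079, Nolc1 passing). All 5 nucleolar chaperones and regulators (median −0.12) and all 9 small subunit members (median −0.088) lay below 0 with none passing. Of the Pol I members 4 of 5 lay below 0 (median −0.050), the exception being Ubtf, the rDNA-binding factor UBF, at 0.0041.

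Among members that missed the threshold, Gnl3 (nucleostemin, a nucleolar GTPase) came nearest. Its signal was 12.78, 12.69 and 12.71 in unstimulated parental cells and 12.81, 12.75 and 12.76 with GFP-PFC. CIR-1 cells gave 12.63, 12.59 and 12.61 unstimulated and 12.64, 12.60 and 12.64 with GFP-PFC, all below the parental arrays and close together. The difference was −0.13 (SE 0.039), with an adjusted p of 0.0525 in limma. Ddx21, a helicase active in both Pol I transcription and rRNA processing, differed by −0.12 (adjusted p 0.0551 in limma), and Wdr12, of the PeBoW complex of 60S maturation, by −0.12 (adjusted p 0.0913 in limma).

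Rrp9 is a protein of the U3 snoRNP, which guides early cuts of the precursor. It read 10.34, 10.24 and 10.25 in unstimulated parental cells and 10.34, 10.27 and 10.32 with GFP-PFC, and 10.02, 10.22 and 10.07 in unstimulated CIR-1 cells and 9.93, 10.20 and 10.20 with GFP-PFC. All CIR-1 arrays were below all parental arrays, with a wider spread in CIR-1, and the difference was −0.19 (SE 0.061, adjusted p 0.0982 in limma). The widest differences were those of Polr1b, a core Pol I subunit, at −0.26 (SE 0.12, adjusted p 0.355 in limma), and Rrp1b, a nucleolar protein of 60S precursors, at −0.24 (SE 0.11, adjusted p 0.321 in limma). For both, the array numbered 1 or 2 was the lowest of its group in every line, unstimulated and with GFP-PFC. Polr1b in unstimulated cells was 11.05, 11.38 and 11.43 in the parental line and 10.74, 11.03 and 11.26 in CIR-1, lower in CIR-1 at each number. In same-numbered arrays 22 members were lower in CIR-1 in 6 of 6 pairs, among them Polr1b, Rrp1b, Rrp12, Nop56 and Mybbp1a, a nucleolar regulator of Pol I, while Ubtf was lower in 2 of 6 and Fbl, Gar1 and Ddx10 in 3 of 6. The share of all genes lower in 6 of 6 pairs was not computed for any line, so such counts are a description only.

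Apart from the Hyper-IL-6 arrays, arrays with the same number deviated together, so a fit with the replicate number as a block bears on these members. The block fit still took in the Hyper-IL-6 arrays under their numbers. With the block, 11 members were lower in CIR-1, where 3.47% of all genes were. Rrp1b (adjusted p 0.00349), Noc3l (0.00390) and Polr1b (0.00669) then had the smallest adjusted p in limma, followed by Nolc1, Ddx21, Ddx18, Gnl3, Wdr12, Wdr74, Nop56 and Rrp9. With the Hyper-IL-6 arrays left out of the block fit, 16 members were lower in CIR-1, and 10.6% of all genes passed in either direction. Without the block, the count of 3 depended on single arrays. It was 0 without the parental array numbered 1, 2 or 4 or the CIR-1 array numbered 4, and between 1 and 3 without any other array of the comparison. Still without the block, it was also 0 when no other arrays entered the fit (3.05% of all genes passed), where the adjusted p of Noc3l, Nolc1 and Ddx18 was 0.204, 0.206 and 0.319 in limma, the highest over all alternatives. The lowest were 0.00112, 0.00413 and 0.0126 in limma. With each array centred on its median only Nolc1 passed (3.6% of all genes), and all 37 members lay below 0.

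Other measures of the same arrays gave the direction without a threshold. At an unadjusted p under 0.05, 16 members were lower in CIR-1 (6.01% of all genes), and the 6 CIR-1 arrays lay wholly below the 6 parental arrays for 6 members, namely Nolc1, Ddx18, Gnl3, Wdr12, Rrp9 and Pes1 (1.54% of all genes). The group mean was lower in both conditions for 34 members, beside 32.4% of all genes. Within same-numbered arrays the members' median was −0.15 and −0.17 at numbers 1 and 2, −0.073 and −0.10 at 3 and 4, and −0.073 and −0.057 at 5 and 6, so it was largest in size at 1 and 2. Without the arrays numbered 1 and 2 in any group, 34 members lay below 0 with a median of −0.080, and Nolc1 (−0.094, adjusted p 0.125) and Ddx18 (−0.10, adjusted p 0.123) no longer passed in limma while Noc3l, Polr1b and Rrp1b did (6.59% of all genes). Of 628 exon-level probe sets of the members, 570 were lower in CIR-1, including 15 of 15 of Nolc1, 5 of 5 of Ddx18, 17 of 17 of Gnl3 and 22 of 23 of Noc3l. These are repeated readings of the same arrays and genes, unequal in number per gene, and not separate evidence. The share of all exon-level probe sets lower in CIR-1 was not computed.

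In either condition alone, with 3 arrays against 3, no member passed the test in limma. In unstimulated cells 1.73% of all genes passed, and 5 members had an unadjusted p under 0.05, all lower in CIR-1 (3.74% of all genes): Noc3l (−0.18), Nolc1 (−0.15), Ddx18 (−0.12), Gnl3 (−0.12) and Ddx21 (−0.10). With GFP-PFC 1.64% of all genes passed, and 9 members had an unadjusted p under 0.05, again all lower (3.42% of all genes). The smallest p-values there were those of Noc3l (−0.18), Gnl3 (−0.15), Ddx21 (−0.13), Nolc1 (−0.14) and Wdr12 (−0.13).

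Genes of other cell types also differed in CIR-1. Of 6 measured erythroid and megakaryocyte markers, 4 were higher (Gata1, Epor, Itga2b and Klf1), and the summed linear signal of the 6 ranged from 7465 to 7801 in unstimulated CIR-1 arrays beside 5992 to 6210 in unstimulated parental arrays. Of 9 mast cell and basophil markers, 3 were lower (Fcer1a, Gzmb and Hdc), with sums of 4732 to 5313 beside 9296 to 13265. Here and below, this list's sum rests mostly on Gzmb, whose mean over all arrays was 12.7, beside 8.37 for Ms4a2, the next brightest by that mean. Among the defining markers, Pf4, Kit, Cpa3 and Mcpt8 were dim over all arrays (means 5.57, 6.72, 5.55 and 6.31). Fcer1a also had a mean below the dim level (6.37), but its signal differed widely between the lines. Against parental cells it differed by −4.16 (CIR-1), −4.16 (CIR-2) and −4.29 (CIR-3). Its mean over all arrays therefore does not show that it was dim in parental cells. Of 9 neutrophil and macrophage markers 1 was higher and 3 were lower, of 13 pro-B markers 1 was higher, and none of 6 T cell markers passed. The part of these genes in the members' difference was not tested.

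The wider pathway was read from gene lists drawn up by function with earlier results known. The 60S list had 4 of 37 genes lower in CIR-1 (Nip7 −0.18, Ddx56 −0.21, Urb1 −0.19 and Ddx31 −0.23) and 33 below 0. The small subunit list had 4 of 39 lower (Utp25 −0.17, Utp6 −0.16, Wdr3 −0.17 and Wdr75 −0.12) and 33 below 0. Of 10 snoRNP partners 2 were lower (Ruvbl2 −0.19 and Snu13 −0.13, an assembly ATPase and a core protein), and of 10 nuclear exosome genes, which trim rRNA ends, 1 was lower (Exosc2 −0.16). None of 7 further Pol I genes passed. Of 53 cytosolic ribosomal protein genes none was lower, Rplp0 was higher (0.27), and the median was −0.012. In the MYC network Mxd4, which competes with MYC for its partner, was higher (0.37, adjusted p 7.1e-07 in limma) and so was Mycn (0.73, adjusted p 0.00770 in limma), while Myc differed by −0.46 (SE 0.15, adjusted p 0.0874 in limma). Mxd4 and Rplp0 were not particular to CIR-1. Both also passed higher against parental cells in CIR-2 (Mxd4 0.22, Rplp0 0.29) and in CIR-3 (Mxd4 0.31, Rplp0 0.28).

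No member passed the test between CIR-2 and parental cells in limma (3.8% of all genes did), and 4 had an unadjusted p under 0.05, all lower in CIR-2 (6.06% of all genes). This comparison shares its 6 parental arrays with that of CIR-1. The members' median was −0.034, and 30 lay below 0, beside 52% of all genes. Arrays of 2 members, Rrp12 and Nolc1, did not overlap, as for 1.6% of all genes. Rrp12, a factor of subunit maturation and export, was 10.25, 10.24 and 10.34 in unstimulated CIR-2 cells and 10.39, 10.35 and 10.36 with GFP-PFC. Parental cells gave 10.41, 10.41 and 10.62 unstimulated and 10.53, 10.51 and 10.56 with GFP-PFC, all above every CIR-2 array. Its difference was −0.19 (SE 0.067, adjusted p 0.171 in limma). Utp20, a large scaffold protein of the small subunit processome, differed by −0.25 (SE 0.096, adjusted p 0.212 in limma). It was 11.26, 10.90 and 10.92 in unstimulated CIR-2 cells and 11.38, 10.96 and 11.04 with GFP-PFC, and 11.52, 11.26 and 11.20 in unstimulated parental cells and 11.46, 11.33 and 11.19 with GFP-PFC. The arrays numbered 1 and 2 were the highest of each group, and the lines overlapped.

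Nolc1 in CIR-2 lay between 12.53 and 12.63, below all parental arrays, with a difference of −0.097 (adjusted p 0.263 in limma). Pes1, a partner of Bop1 and Wdr12 in PeBoW, differed by −0.073 (adjusted p 0.384 in limma) and Heatr1, a processome subunit, by −0.14 (adjusted p 0.532 in limma). By role, 10 of 10 60S members, 7 of 9 small subunit members, 4 of 5 chaperones and regulators, 3 of 5 Pol I members and 3 of 4 in each snoRNP class lay below 0, with none passing. With the replicate block, Rrp12 (adjusted p 0.0224) and Utp20 (0.0311) passed in limma, both lower, where 2.9% of all genes were lower. Over all alternatives the adjusted p in limma ran from 0.0197 to 0.360 for Rrp12 and from 0.0167 to 0.447 for Utp20. In unstimulated cells alone 0 members passed (1.2% of all genes did), and 2, Utp20 (−0.30) and Rrp12 (−0.20), had an unadjusted p under 0.05, both lower (3.91% of all genes). Nolc1 (−0.091), Heatr1 (−0.17) and Pes1 (−0.074) came next by p. With GFP-PFC alone 0 passed in limma (1.17% of all genes did) and 0 had an unadjusted p under 0.05 (6.87%), the smallest p-values being those of Nolc1 (−0.10), Rrp12 (−0.17), Pes1 (−0.072), Utp20 (−0.20) and Ddx18 (−0.057). In same-numbered arrays 8 members were lower in CIR-2 in 6 of 6 pairs (share of all genes not computed): Heatr1, Noc4l, Nolc1, Nop56, Pes1, Polr1b, Rrp12 and Utp20. As in CIR-1, 4 erythroid markers were higher and 3 mast cell markers lower in CIR-2, with mast cell sums of 2990 to 4840 in unstimulated arrays. Of the neutrophil and macrophage list Lcn2 (1.77) passed higher and Mpo (−1.54) lower, and the pro-B marker Cd79b (0.20) passed higher. The part of all these genes in the members' values was not tested. In the wider lists the 60S genes had a median of −0.0087 and 25 of 37 below 0. Some listed genes nevertheless passed in the other direction. Brix1 of the 60S list (0.25, adjusted p 0.0187 in limma) and Utp23 of the small subunit list (0.35, adjusted p 0.0150 in limma) were higher in CIR-2.

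No member passed the test between CIR-3 and parental cells, again against the same parental arrays, where 4.2% of all genes passed in limma. An unadjusted p under 0.05 was found for 2 members, Wdr12 (−0.085, adjusted p 0.269) and Nop14, a processome protein (−0.077, adjusted p 0.301), both lower, where 8.13% of all genes were. Pes1 (−0.061) and Ddx21 (−0.056) also had small differences. The members' median was −0.051 and 34 lay below 0, beside a median of −0.023 and 59.7% below 0 over all genes. The 5149 genes at or above the level of the dimmest member lay the other way, with a median of 0.027 and 37.7% below 0. The size of the members' shift depended on the scaling: their median was −0.0061 with 22 below 0 when each array was centred on its median, and −0.078 with 35 below 0 after quantile normalization. Without the arrays numbered 1 and 2 it was −0.031. Nolc1 arrays of CIR-3 lay between 12.51 and 12.66, below all parental arrays, at −0.079 (adjusted p 0.328 in limma), the only member whose arrays did not overlap (1% of all genes were lower in this way). In unstimulated cells alone 0 members passed in limma and 0 had an unadjusted p under 0.05 (1.49% and 12% of all genes), and with GFP-PFC it was also 0 and 0 (1.24% and 7.71%). The smallest p-values were those of Nolc1 (−0.083), Wdr12 (−0.080), Pes1 (−0.055), Nop14 (−0.056) and Polr1c (−0.078) unstimulated. With GFP-PFC they were those of Nop14 (−0.097), Wdr12 (−0.090), Pes1 (−0.068), Nolc1 (−0.075) and Ddx21 (−0.065). By role, 10 of 10 60S members, 8 of 9 small subunit members, 5 of 5 chaperones and regulators, 4 of 5 Pol I members, 4 of 4 box H/ACA and 3 of 4 box C/D members lay below 0, and 12 members were lower in 6 of 6 same-numbered pairs (share of all genes not computed). The markers of other cell types were mixed in CIR-3. Of the mast cell list Fcer1a was lower by a difference of −4.29, while Gzmb (0.53), with a mean level of 12.7 over all arrays, and Ms4a2 (0.59) were higher, and the linear sums were 13915 to 17118 in unstimulated arrays. Of the neutrophil and macrophage list Mpo (0.98) and Lcn2 (1.48) were higher and Lyz2 (−0.91) was lower. The erythroid marker Epor and the pro-B markers Cd79a (0.35) and Cd79b (0.17) were higher, and the part of these genes in the members' values was not tested. From the wider lists, Utp23 (0.52, adjusted p 0.000247 in limma) and the Pol I gene Polr1e (0.28, adjusted p 0.00368 in limma) passed, both higher in CIR-3.

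**Figure D3:**
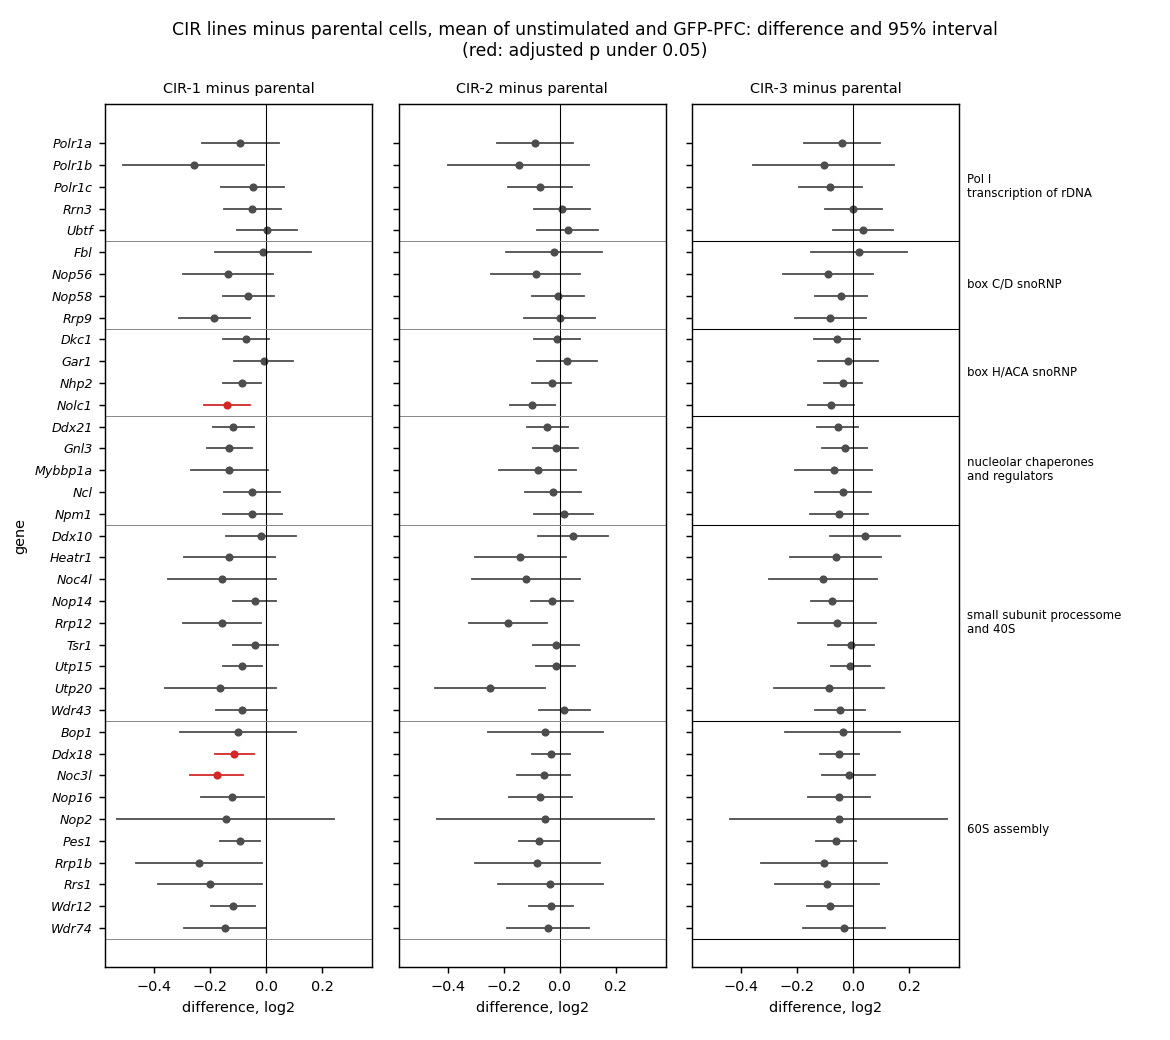
Each point is the difference of a CIR line from parental cells in log2 signal, over unstimulated and GFP-PFC-treated cells (6 arrays against 6), with its 95% interval, and red marks an adjusted p under 0.05. In CIR-1 the points lie left of 0 for 36 of 37 members and 3 are red, and none is red in CIR-2 or CIR-3. The 3 panels share the parental arrays.

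The CIR lines were also set against each other, since a gene that passes in CIR-1 and not in CIR-2 is not thereby shown to differ between them. No member passed in CIR-2 against CIR-1 (1.45% of all genes did), in CIR-3 against CIR-1 (2.8%) or in CIR-3 against CIR-2 (2.33%) in limma. An unadjusted p under 0.05 was found for 7 members in the first (7.8% of all genes), 3 in the next (13.3%) and 0 in the last (14%). Noc3l was nearest, 0.16 higher in CIR-3 than in CIR-1 (SE 0.046, 95% interval 0.066 to 0.26, adjusted p 0.0621 in limma), and with the replicate block it passed (adjusted p 0.0133), where 3.3% of all genes were higher in CIR-3. Over all alternatives its adjusted p in limma ran from 0.00238 to 0.213. Gnl3 (0.10), Utp15 (0.075), Ddx18 (0.064) and Ddx21 (0.062) followed. Between CIR-2 and CIR-1, Rrp9 differed by 0.19 (adjusted p 0.215 in limma), Gnl3 by 0.12 (adjusted p 0.216 in limma), Noc3l by 0.12 (adjusted p 0.379 in limma), Ddx18 by 0.082 (adjusted p 0.447 in limma) and Wdr43, a processome subunit, by 0.10 (adjusted p 0.481 in limma). Gnl3 was 12.72, 12.73 and 12.72 in unstimulated CIR-2 cells and 12.75, 12.76 and 12.74 with GFP-PFC, all above the CIR-1 arrays. Every CIR-2 array lay above every CIR-1 array for 4 members, Gnl3, Ddx18, Wdr12 and Wdr43 (1.08% of all genes). In CIR-3 minus CIR-2 the smallest p-values were those of Rrp12 (0.13, adjusted p 0.401 in limma) and Utp20 (0.16, adjusted p 0.460 in limma), then Wdr43 (−0.064), Wdr12 (−0.053) and Nop14 (−0.049, but 0.0022 with each array centred on its median). The members' median was 0.056 in CIR-2 minus CIR-1 and 0.057 in CIR-3 minus CIR-1, where it was 0.11 with each array centred on its median and 0.035 after quantile normalization.

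An F-test over all 4 lines found 1 member that varied, Noc3l (F 6.10, adjusted p 0.0458 in limma), where 7.42% of all genes varied. At an unadjusted p under 0.05 there were 8 members (18% of all genes). Gnl3 (0.107), Nolc1 (0.125), Ddx18 (0.144) and Rrp9 (0.150) followed by adjusted p. With the replicate block 5 members varied (Noc3l, Rrp1b, Polr1b, Rrp12 and Nolc1), where 13.5% of all genes did. Noc3l fell short in 19 of the 24 fits that each left out 1 array, and its adjusted p in limma ran from 0.00140 to 0.181 over the alternatives.

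No member passed the test after 1 h with GFP-PFC. Over the 4 lines (12 arrays against 12), 0 of 37 passed in limma, where 0.221% of all genes did, and 1 member, Utp15, had an unadjusted p under 0.05 (6.31% of all genes). The members' median was 0.027, beside −0.011 over all genes, and 32 lay above 0, beside 40.2% of all genes. The 5149 genes at or above the level of the dimmest member were nearer, with a median of 0.0056 and 42.4% below 0. With each array centred on its median the members' median was 0.047, and after quantile normalization it was 0.018. The size was small: the widest 95% interval, that of Nop2, ran from −0.22 to 0.33, and the largest difference was 0.11 (SE 0.064) for Rrs1, which helps to place the 5S particle in the 60S precursor.

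Utp15 belongs to the processome subcomplex that also acts in rDNA transcription. Its mean was 12.07 ± 0.046 (SD, n = 12) with GFP-PFC and 12.01 ± 0.047 (SD, n = 12) without. Between arrays of consecutive numbers, the GFP-PFC array was higher by 0.021, 0.11 and 0.055 for the parental line. The CIR-1 pairs differed by 0.078, 0.057 and 0.059 and the CIR-3 pairs by 0.11, 0.079 and 0.022. In CIR-2 it differed by 0.090, −0.043 and 0.068. It was thus higher in 11 of 12 pairs, while the 12 and 12 arrays overlapped, and the difference was 0.059 (SE 0.024, adjusted p 0.631 in limma). Tsr1, a GTPase-like factor of late 40S maturation, was higher in 10 of 12 pairs, by 0.058 on average (SE 0.028, adjusted p 0.794 in limma). Noc3l (0.048) and Rrp12 (0.067) came next by p. Rrp1b was higher in 12 of 12 pairs although its pooled difference did not pass, and Ubtf was higher in 1 of 12. Like Utp15, the members Nop56, Polr1b, Nop16, Noc4l, Gnl3 and Rrn3 were higher in 11 of 12. The share of all genes with such pair counts was not computed, so they are a description only. By role, 10 of 10 60S members, 4 of 4 box C/D members, 8 of 9 small subunit members, 4 of 5 chaperones, 3 of 4 box H/ACA and 3 of 5 Pol I members lay above 0.

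Line by line, 0 members passed in limma, as did 0% of all genes, and 0 members had an unadjusted p under 0.05 in any line, beside 3.92% of all genes in the parental line, 2.45% for CIR-1, 1.33% for CIR-2 and 2.14% for CIR-3. The members' median was 0.026, 0.024, 0.027 and 0.019 in the same order. The smallest p-values were those of Tsr1 (0.085), Rrs1 (0.19), Utp15 (0.063), Nop58 (0.078) and Nop14 (0.063) in the parental line. In CIR-1 they were those of Utp15 (0.065), Rrn3 (0.070), Ddx18 (0.044), Gar1 (−0.066) and Noc3l (0.057). For CIR-2 Rrp12 (0.090), Tsr1 (0.049), Dkc1, the pseudouridine synthase dyskerin (0.046), Utp15 (0.038) and Fbl (0.093) came first, and for CIR-3 Utp15 (0.071), Tsr1 (0.067), Rrn3 (0.078), Rrs1 (0.14) and Ubtf (−0.070). The members' median lay above 0 in 11 of 12 pairs of consecutive arrays, from −0.010 to 0.063, and without the unstimulated CIR-2 array numbered 1 the CIR-2 median turned to −0.014. No member passed the F-test of the response among the lines in limma (0% of all genes at the adjusted threshold, 0.939% at an unadjusted p under 0.05, and 0 members at either). Averaged over the 4 lines, Myc rose by 0.58 with GFP-PFC (SE 0.10, adjusted p 0.0111 in limma) and Mycn by 0.58 (adjusted p 0.0279 in limma). Taf1a, a subunit of the Pol I selectivity factor, rose by 0.27 in that average (adjusted p 0.00576 in limma). None of the 37 60S list genes or of the 39 small subunit list genes passed in it, with 33 and 35 above 0, and 15 of 53 ribosomal protein genes lay above 0.

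In parental cells no member passed the test after 1 h with Hyper-IL-6 either. Against unstimulated cells (3 arrays each), 0 of 37 passed in limma, where 0.773% of all genes did, and the members split into 18 above 0, beside 44% of all genes, and 19 below (median −0.0020). This split depended on the scaling: 27 lay below 0 after quantile normalization (median −0.031) and 10 with each array centred on its median (median 0.023). An unadjusted p under 0.05 was found for 2 members (6.66% of all genes). Wdr12 was 12.44, 12.28 and 12.30 with Hyper-IL-6 and 12.53, 12.48 and 12.44 without, so that the highest treated array overlapped the lowest untreated one. Its difference was −0.14 (SE 0.054, adjusted p 0.514 in limma). Ddx10, a helicase of the small subunit pathway, was 12.07, 12.32 and 12.29 with Hyper-IL-6 and 12.03, 11.98 and 12.13 without, a difference of 0.18 (SE 0.085, adjusted p 0.744 in limma) with overlapping arrays. Polr1c, a subunit shared by Pol I and Pol III, differed by −0.15 (adjusted p 0.806 in limma), Utp15 by 0.050 and Nhp2, a core box H/ACA protein, by −0.049.

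Nop2 had the largest difference, 0.20, with a 95% interval from −0.35 to 0.75. Its Hyper-IL-6 arrays were at 12.30, 12.23 and 12.27 and the unstimulated ones at 11.59, 12.32 and 12.31, where the array numbered 1 was the lowest. Mycn was 2.18 higher with Hyper-IL-6 (adjusted p 3.59e-06 in limma) and Myc 0.95 higher (adjusted p 0.0256 in limma). With array weights, which give less weight to arrays that scatter more, Wdr12 (adjusted p 0.0154) and Ddx10 (0.0268) passed in limma, where 17.4% of all genes did. Without the arrays numbered 1 and 2, Ddx10 (0.0295), Rrs1 and Wdr12 (0.0429) did in limma, where 18.4% of all genes did. Both counts were a smaller share of the 37 members than of all genes. Over all alternatives the highest adjusted p in limma was 1.00 for both Wdr12 and Ddx10.

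Hyper-IL-6 and GFP-PFC were compared directly in parental cells, with the same Hyper-IL-6 arrays. No member passed in limma (0.507% of all genes did), and 2 had an unadjusted p under 0.05 (5.41% of all genes). Wdr12 with GFP-PFC was 12.59, 12.51 and 12.41, and it was lower with Hyper-IL-6 by a difference of −0.16 (SE 0.054, adjusted p 0.490 in limma), with overlapping arrays, and Ddx10 was higher by 0.18 (adjusted p 0.921 in limma). With array weights both passed, where 9.67% of all genes did, a larger share than among the members. The members' median was −0.037 and 26 lay below 0, beside 46.9% of all genes. For 4 members all Hyper-IL-6 arrays lay below all GFP-PFC arrays, as for 5.26% of all genes: Ddx18, Nhp2, Nop14 and Tsr1. Ncl (nucleolin) differed by −0.12, Nhp2 by −0.073, and Ddx18 by −0.077.

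**Figure D4:**
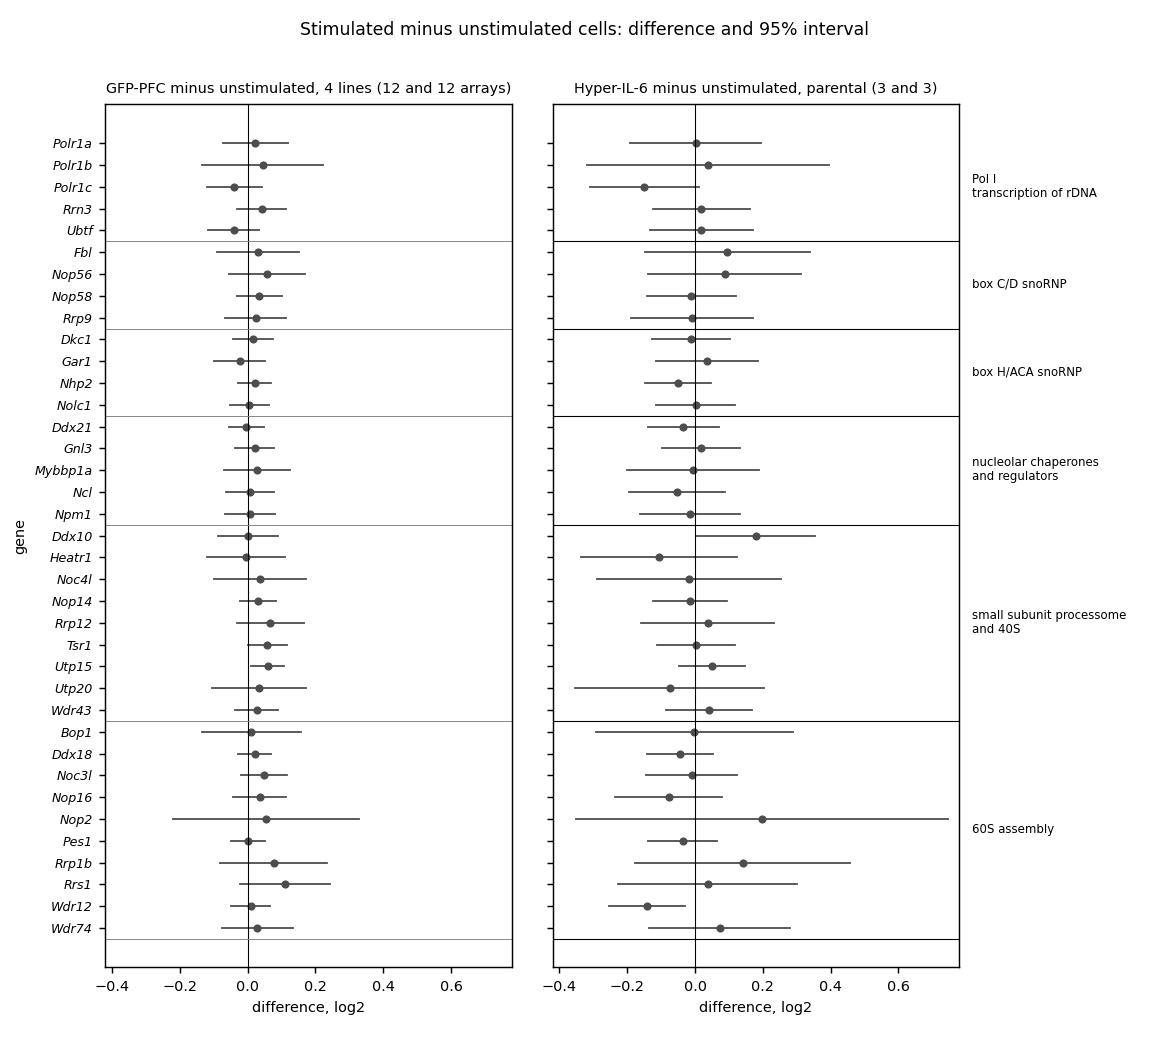
Points are differences from unstimulated cells in log2 signal with 95% intervals, for GFP-PFC over 4 lines (12 arrays against 12) and for Hyper-IL-6 in parental cells (3 against 3). On the left 32 of 37 points lie above 0 and on the right 18, no member passed the test in either, and Nop2 has the widest interval.

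The array numbered 1 or 2 stood apart from the other 2 arrays of its group for many members, in the same way in all 4 lines with and without GFP-PFC. Nop2 was lower on that array in 8 of 8 groups, by a difference of −0.66 on average, which is wider than any difference between lines. Polr1b (−0.41), Rrp1b (−0.35), Bop1 (−0.32), Noc4l (−0.29), Nop56 (−0.24), Fbl (−0.24) and Wdr74 (−0.22) were also lower in 8 of 8. Fbl is the box C/D methyltransferase fibrillarin and Nop56 its partner. Other members went the other way: Utp20 (0.24), Heatr1 (0.21), Polr1c (0.13) and Noc3l (0.090) were higher in 8 of 8 groups. The median was −0.050 for the members and −0.037 for all genes, with 25 of 37 members and 62.9% of all genes below 0. What sets these arrays apart was not tested.

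**Figure D5:**
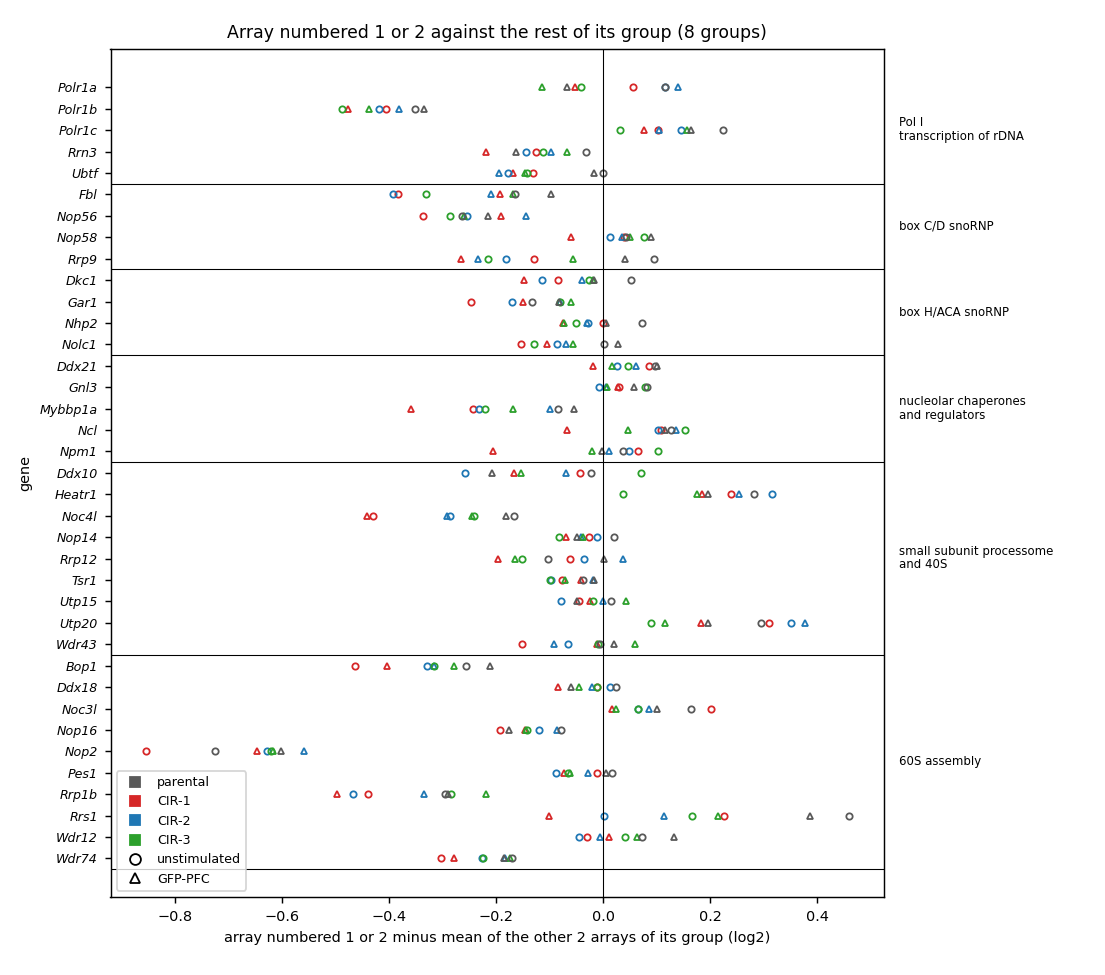
Each symbol is the array numbered 1 (unstimulated) or 2 (GFP-PFC) minus the mean of the other 2 arrays of its group, in log2 signal, for 8 groups coloured by line. The Nop2, Polr1b and Rrp1b symbols all lie left of 0, and those of Utp20, Heatr1 and Noc3l lie right of it.

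Probe sets of a gene did not always give the same value. In CIR-1 the further probe set of Wdr12 gave −0.14 beside −0.12, while that of Fbl gave −0.10 beside −0.010. The further probe set of Ddx18 was also lower in CIR-3 than in parental cells, by −0.17 beside −0.0495 for the chosen one. It passed there (adjusted p 0.0378 in limma with every probe set tested on its own). In CIR-2 against parental cells it gave −0.11 beside −0.032, and in CIR-3 against CIR-1 0.011 beside 0.064. Values for Fbl, and the contrast of Ddx18 between CIR-1 and the other CIR lines, therefore depend on the probe set chosen.

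Promoter windows of 300 bases (250 before and 50 after the start) were held by RefSeq for 32 of the 37 measured members, Npm1, Rrp12, Fbl, Bop1 and Rrs1 having none in the table. On both strands CACGTG occurred in the windows of 7 members (21.9%, beside 8.09% of 27025 genes): Mybbp1a, Nop2, Pes1, Rrn3, Tsr1, Utp20 and Wdr43. CCGGAAG occurred in 11 (34.4%, beside 9.93%), CCAAT in 11 (34.4%, beside 41.1%) and TATAAA in 2 (6.25%, beside 15.7%). The median GC content was 59.5% for the members' windows and 52.7% for all windows. Only Nop2 and Rrn3, the Pol I initiation factor TIF-IA, had a CACGTG wholly before the start, and their upstream bases are shown for that reason, from the same build and marked in the same way. In Nop2 (chr6:125131633-125131882, plus strand) CACGTG begins 60 and CCGGAAG 38 bases before the start, and in Rrn3 (chr16:13780449-13780698, plus strand) CACGTG begins 215 and 48 bases before it.
Nop2: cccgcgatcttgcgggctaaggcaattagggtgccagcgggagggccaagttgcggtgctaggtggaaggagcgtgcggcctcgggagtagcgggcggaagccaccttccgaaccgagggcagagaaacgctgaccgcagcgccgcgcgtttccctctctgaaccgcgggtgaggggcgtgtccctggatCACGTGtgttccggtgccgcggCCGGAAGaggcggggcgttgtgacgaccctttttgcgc
Rrn3: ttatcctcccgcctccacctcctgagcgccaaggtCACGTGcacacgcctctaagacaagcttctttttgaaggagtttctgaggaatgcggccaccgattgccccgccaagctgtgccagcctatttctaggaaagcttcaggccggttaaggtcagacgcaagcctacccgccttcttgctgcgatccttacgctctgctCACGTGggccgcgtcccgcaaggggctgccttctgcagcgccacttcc

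These letters are a description of the windows and say nothing about what binds there. Of the 2 genes, Nop2 differed by 0.054 (SE 0.13) with GFP-PFC and by −0.14 (SE 0.19) in CIR-1, and Rrn3 by −0.050 (SE 0.049) in CIR-1, none past the test. The 3 members that passed in CIR-1 have no CACGTG in their windows.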

How the data were processed

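RNA of 27 samples was amplified, labelled with biotin and hybridised to Affymetrix mouse arrays, per the labels' protocols. The authors deposited gene-level and exon-level values made with Affymetrix Expression Console, per the submitters' processing notes. The algorithm, version, normalization and log base are not given in the sources used here. The deposited gene-level values ran from 2.97 to 14.9 and were read as log2 signal, on which the fold and percent values rest. The precision is limited by the number of arrays.

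Among the 35556 gene-level probe sets, 21789 were annotated with 1 symbol, 1621 with several and 12146 with none, and 23 symbols were updated through the reference, in which 21698 Entrez numbers were found. For 1015 genes with several probe sets the one with the highest mean was used. No dim genes were left out. Group means were fitted over all 27 arrays with limma 3.58.1 in R 4.3.3 (lmFit and eBayes, two-sided), after the script had been tested on simulated data. Arrays were grouped by the transfection and stimulation in the labels. The members and gene lists were chosen with earlier results of these data known.

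The members named in each comparison are those past the test, up to 12 by p, and otherwise the 5 with the smallest p, with the extremes of level and range. Further members were named after their values were seen.

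The replicate numbers come from the titles (1, 3 and 5 unstimulated, 2, 4 and 6 stimulated). Deviations from group means correlated over genes between arrays of consecutive numbers of a line (12 pairs, 0.283 to 0.633) and between equal numbers of the parental and CIR lines (unstimulated 0.136 to 0.763, GFP-PFC 0.224 to 0.615) and of different CIR lines (unstimulated 0.278 to 0.604, GFP-PFC 0.211 to 0.475). They did not for Hyper-IL-6 arrays with unstimulated ones (−0.463 to −0.022). The numbers were therefore taken to pair the arrays other than the Hyper-IL-6 ones. The replicate block joined the numbers 1 and 2, 3 and 4, and 5 and 6. It nevertheless also took in the Hyper-IL-6 arrays under their numbers. Every block result holds for that fit, except where the Hyper-IL-6 arrays are said to be left out.

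Alternatives were the replicate block, this block with Hyper-IL-6 arrays left out (chosen after seeing the data), array weights, the compared arrays alone, no arrays numbered 1 and 2, exon-level values, every probe set, a filter on genes with a mean under 6.62 (the median of the arrays' lower quartiles), quantile normalization, median centring and leaving out each array. Figures were drawn with matplotlib 3.10.9.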

Additional observations from a re-analysis of the deposited data

How the results depend on the processing

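The following counts of members past the adjusted threshold moved by more than 1.5 times from those reported (3 for CIR-1 against parental cells, 1 for the F-test among 4 lines and 0 elsewhere), and the share of all genes past it stands in parentheses. With the replicate block there were 11 for CIR-1 (8.3%) and 2 for CIR-2 against parental cells (6.67%), 1 for CIR-3 against CIR-1 (5.13%) and 5 in the F-test (13.5%), and the block changed no other count. With the block and the Hyper-IL-6 arrays left out there were 16 for CIR-1 (10.6%), 2 for it unstimulated (4.83%), 2 with GFP-PFC (4.31%), 3 for CIR-2 (8.76%), 1 for CIR-3 (11.6%), 1 for CIR-2 against CIR-1 (3.58%), 3 for CIR-3 against CIR-1 (7%) and 12 in the F-test (18.3%). In a fit to the compared arrays only, there were 0 for CIR-1 (3.05%) and 0 in the F-test (6.72%). With array weights there were 2 for Hyper-IL-6 against unstimulated cells (17.4%), 2 against GFP-PFC (9.67%), 5 for CIR-1 (8.65%), 1 for it with GFP-PFC (4.57%), 2 for CIR-2 (9.52%), 3 for CIR-2 against CIR-1 (3.52%), 2 for CIR-3 against CIR-1 (6.82%) and 7 in the F-test (22.2%). Without the arrays numbered 1 and 2 there were 3 for Hyper-IL-6 against unstimulated cells (18.4%), 1 for CIR-2 (1.81%) and 1 for CIR-3 (6.47%) against CIR-1 and 3 in the F-test (17.9%). Exon-level values gave 0 in the F-test (6.69%), and every probe set tested on its own gave 1 for CIR-3 (a probe set of Ddx18, 4.22%) and 2 in the F-test (7.18%). The filter on genes with low signal gave 5 for CIR-1 (7.1%) and 1 for CIR-3 against CIR-1 (3.85%), quantile normalization 6 (5.56%) and 1 (2.96%), and median centring 1 for CIR-1 (3.6%) and 0 in the F-test (6.59%). Leaving out each array gave 0 to 3 for CIR-1, 0 to 1 in the F-test and 0 to 1 for CIR-3 against CIR-1, where it was 1 without the unstimulated CIR-1 array numbered 1.

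The members' median kept its sign in CIR-1 against parental cells under the alternatives tried. Under median centring it was 0.016 for the unstimulated CIR-3 cells alone against parental cells and 0.048 for CIR-3 against CIR-2, and Nop14 in CIR-3 against CIR-2 reversed to 0.0022. The cause of these changes was not tested. The values hold for these arrays alone, with 3 per group, an unstated normalization and probe sets that can disagree, as for Fbl and Ddx18.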
